A study of Mus musculus with 9 samples.

Results

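The 34 genes described here drive or restrain the cell division cycle, and they were read in the mouse cochlea, the hearing organ of the inner ear, at postnatal day 3. They were taken as a fixed set of symbols, found through their Ensembl identifiers among the 51912 genes listed for the WT and HET libraries, and all 34 were found. For description they were placed in 4 roles: 10 cyclins and cyclin-dependent kinases, 8 genes of DNA replication, 14 genes of mitosis and 2 inhibitors of the kinases. Of the 34, 32 reached 1 FPKM (a count of fragments scaled to gene length and library size) in at least 3 of the 6 WT and HET libraries and were tested, and Cenpf and Kif11 did not. None of the 34 (0) is among the 1137 genes listed for the HOM libraries, so their level in HOM was not analysed here.

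RNA-seq was made from cochleae of 3 genotypes, with 3 libraries each. WT stands for Pou4f3(+/+), HET for Pou4f3(Δ/+) and HOM for Pou4f3(Δ/Δ). Hair cells, which sense sound, need the transcription factor that Pou4f3 encodes; no source used here gives the extent of the Δ allele. Titles of the samples name these genotypes, whereas the genotype characteristic names another one in every sample; the titles were followed, and each direction below depends on them. No source says that the libraries came from separate animals, so p values measure only the spread between these libraries, which may be technical.

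A cell that divides passes from G1 through S phase, where DNA is copied, and G2 into mitosis. D-type cyclins with Cdk4 start the passage, cyclins E and A with Cdk2 carry it into and through S phase, and cyclins A and B with Cdk1 lead into mitosis, while Cdkn1b (p27Kip1) and Cdkn1c (p57Kip2) bind and hold back the kinases. In the developing cochlea the precursors of hair cells and supporting cells leave the cycle before birth, when Cdkn1b comes on, and at postnatal day 3 division goes on in other cells of the organ, such as glia and mesenchyme. In whole cochleae a lower RNA level can come from fewer cells of a type or from less RNA in each cell, and these cannot be told apart.

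Promoter sequence is shown because most of these genes varied together between libraries, and because cell cycle promoters are known for 3 short elements. These are the CHR element, searched as TTTGAA, the E2F site, searched as TTCCCGC, and the CCAAT box; none of their matches overlapped in the windows printed. RefSeq windows (GRCm38.p6) of 300 bases around a gene's start were found for 25 of the 34 genes, in 26 windows, and were searched on both strands. Capitals mark every match of the 3 motifs, also where it is read on the other strand. The mitotic cyclin gene Ccnb2 (chr9:70421505-70421804, - strand), the mitotic activator gene Cdc20 (chr4:118437294-118437593, - strand) and the kinase gene Cdk1 (chr10:69352863-69353162, - strand) were picked as genes high in the same libraries with CHR and CCAAT matches. Mcm3 (chr1:20820263-20820562, - strand) stands for a replication gene with an E2F match. Cdkn1b (chr6:134920151-134920450, + strand) is the inhibitor that was lowest in HET 1 and WT 3, with WT 3 close to the other WT libraries. The other inhibitor, Cdkn1c, was highest in HET 1 and WT 3 and has no window.
Ccnb2: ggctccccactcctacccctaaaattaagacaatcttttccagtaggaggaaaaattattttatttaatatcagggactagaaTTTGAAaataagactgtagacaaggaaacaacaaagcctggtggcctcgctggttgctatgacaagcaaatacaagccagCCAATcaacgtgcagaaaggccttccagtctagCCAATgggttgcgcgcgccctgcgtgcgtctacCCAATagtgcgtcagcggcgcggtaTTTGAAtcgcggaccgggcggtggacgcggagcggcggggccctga
Cdc20: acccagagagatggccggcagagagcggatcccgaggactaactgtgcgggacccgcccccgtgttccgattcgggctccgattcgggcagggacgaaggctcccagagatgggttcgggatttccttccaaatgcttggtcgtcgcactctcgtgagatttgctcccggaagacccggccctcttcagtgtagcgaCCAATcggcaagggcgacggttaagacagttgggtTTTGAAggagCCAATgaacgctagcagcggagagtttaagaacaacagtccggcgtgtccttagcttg
Cdk1: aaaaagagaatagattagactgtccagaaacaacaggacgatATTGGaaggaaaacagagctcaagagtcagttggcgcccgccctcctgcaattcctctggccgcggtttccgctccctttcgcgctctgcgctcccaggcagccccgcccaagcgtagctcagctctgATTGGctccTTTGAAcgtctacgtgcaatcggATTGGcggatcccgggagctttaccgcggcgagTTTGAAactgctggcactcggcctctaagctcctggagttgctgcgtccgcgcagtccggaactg
Mcm3: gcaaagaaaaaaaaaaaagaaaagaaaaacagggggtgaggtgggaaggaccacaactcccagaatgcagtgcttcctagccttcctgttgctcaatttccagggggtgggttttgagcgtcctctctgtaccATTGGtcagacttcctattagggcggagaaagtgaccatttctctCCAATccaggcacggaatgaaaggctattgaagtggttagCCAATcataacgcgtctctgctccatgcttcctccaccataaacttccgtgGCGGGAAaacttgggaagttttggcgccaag
Cdkn1b: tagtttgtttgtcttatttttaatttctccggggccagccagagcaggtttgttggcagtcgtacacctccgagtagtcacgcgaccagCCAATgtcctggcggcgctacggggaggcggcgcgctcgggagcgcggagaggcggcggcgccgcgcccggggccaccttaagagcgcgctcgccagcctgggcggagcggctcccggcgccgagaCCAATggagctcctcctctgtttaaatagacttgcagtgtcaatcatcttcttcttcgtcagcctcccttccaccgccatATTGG

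For all 3 motifs, members were counted by gene and the background by window. The CHR letters were found in 11 of the 25 genes (44.0%), against 17.9% of the 32851 windows of the table. They were found in 8 of 11 mitosis genes with a window (Aurka, Bub1b, Cdc20, Cenpf, Kif11, Mki67, Plk1 and Top2a), in 2 of 6 cyclin and kinase genes (Ccnb2 and Cdk1), in 1 of 7 replication genes (Mcm2) and not in Cdkn1b. The E2F letters were found in 3 of the 25 (12.0%; Cdk2, Mcm3 and Mcm7), against 4.60% of all windows. CCAAT was found in 22 of the 25 (88.0%), against 37.4%; the 3 without it were Birc5, Ccne1 and Cdk4. In Ccnb2 the 3 CCAAT matches begin 87, 54 and 21 bases before the start, and 1 of the 2 CHR matches begins 4 bases after it. In Cdc20 the CHR match begins 18 bases before the start and the CCAAT matches 53 and 8 bases before it. A match is a description of these windows and not a binding site. Only the exact letters were searched, so a window without them may still hold another form of an element. Matches and library order did not go together in every gene. Birc5, Ccne1 and Cdk4 hold none of the 3 motifs, and HET 1 and WT 3 were their 2 highest libraries. Mki67 and Bub1b hold CHR and CCAAT matches and had another order. Cdkn1b, lowest in HET 1 and WT 3 where Cdc20 was highest, holds 3 CCAAT matches of its own.

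Expression of the set spanned more than 3 orders of magnitude on the FPKM scale, which is per length. That span rests on Kif11 alone, at 0.01 to 0.08 FPKM, and the next lowest WT mean was 0.93, for Cenpf. The highest levels were those of an inhibitor. Cdkn1c, which holds cells out of the cycle, was at 204.95, 213.94 and 241.79 FPKM in WT replicates 1 to 3 and at 220.25, 194.32 and 219.87 in HET (WT mean 220.2 ± 19.2, SD, n = 3). The gene (ENSMUSG00000037664) spans chr7:143458339-143461050 in GRCm38. Cdk4, the kinase partner of D-type cyclins, came next, at 74.26, 76.58 and 91.48 FPKM in WT and 98.39, 65.75 and 65.49 in HET, with overlapping groups. Cdkn1b was at 59.47, 59.08 and 57.96 FPKM in WT and 49.89, 61.33 and 61.47 in HET, so that the HET libraries lay on both sides of WT. Ccnd1 (27.8 ± 2.77 FPKM in WT) and the replication clamp gene Pcna (26.2 ± 5.31) did not differ beyond their spread in that order, nor did Ccnd2 (14.9 ± 1.92) and the helicase gene Mcm7 (13.97 ± 0.589; n = 3 each). The WT mean was under 10 FPKM for 27 of the 34 genes. Mitotic genes were low, from 8.24 ± 2.52 FPKM for Cdc20 to 1.36 ± 0.344 for the checkpoint kinase gene Bub1 among those tested.

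**Figure D1:**
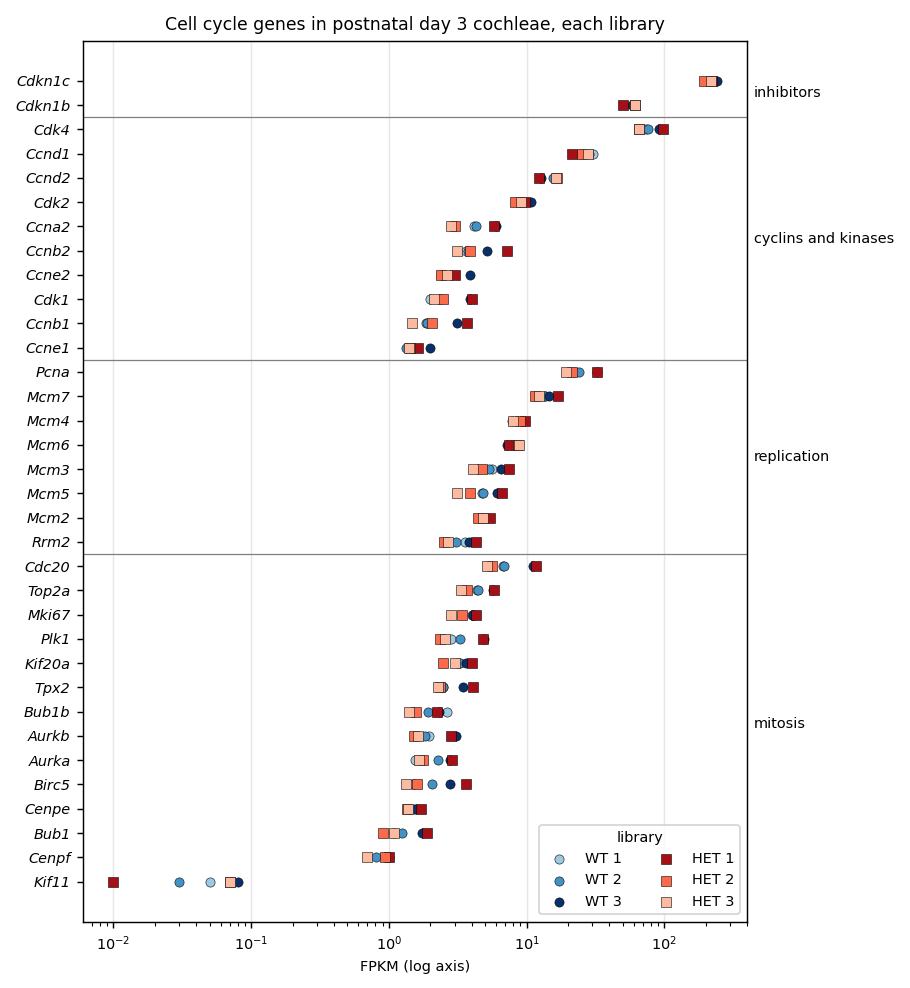
FPKM (log axis) of the 34 cell cycle genes in each of the 3 WT (circles) and 3 HET (squares) libraries, grouped by role and ordered by WT mean. Cdkn1c lies highest, at 194.32 to 241.79 FPKM, and for most genes the darkest circle (WT 3) and the darkest square (HET 1) lie furthest to the right.

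Both genes that were not tested are mitotic. Cenpf, a kinetochore protein gene, was just below the minimum at 1.00, 0.81 and 0.98 FPKM in WT and 1.00, 0.94 and 0.69 in HET, and Bub1, just above it, was at 0.90 to 1.90 FPKM. Kif11, which encodes the motor that pushes spindle poles apart, was at 0.01 to 0.08 FPKM, or 1 to 9 recovered fragments per library, far below the spindle factor gene Tpx2 at 2.26 to 4.10. The cause of the low Kif11 values was not tested.

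Over the whole transcriptome HET 1 and WT 3 lay together and away from the remaining 4, on an axis that holds 58.1% of the variance. The same axis held 58.0% when the members and 120 further cell cycle genes were removed. Depth recovered from the FPKM steps, between 14.3 and 17.4 over the 9 libraries in units of 1000000 fragments, did not single them out (16.3 in HET 1 and 15.1 in WT 3). Summed FPKM did, at 312688 in HET 1 and 304990 in WT 3 against 273016 to 283674 in the other 4. Pou4f3 itself was at 25.02, 24.49 and 26.97 FPKM in WT, 24.21, 21.74 and 25.56 in HET and 5.92, 1.36 and 9.39 in HOM, so that its level sets HOM apart but does not tell HET from WT libraries. Markers of the cochlea were present: all 10 hair cell and all 10 supporting cell markers passed the minimum. None of 7 skeletal muscle markers (0) and 1 of 6 genes listed as brain markers did, Slc17a7, at 0.44 to 1.74 FPKM.

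Most of the cell cycle genes were highest in these 2 libraries. HET 1 and WT 3 were the 2 highest libraries for 26 of the 32 tested members, against 31.5% of all 15391 genes tested, and the 2 lowest for 4 (Ccnd1, Ccnd2, Mcm6 and Cdkn1b), against 25.3%. Mki67 and Bub1b had another order. These shares describe 6 libraries, in which genes are not independent, and were not tested. Relative to the WT mean, the median member stood at 0.24 in HET 1 and 0.19 in WT 3 on the log2(FPKM + 1) scale, and at -0.11, -0.09, -0.20 and -0.25 in WT 1, WT 2, HET 2 and HET 3. The median over all genes tested lay between -0.02 and 0.03 in each library.

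**Figure D2:**
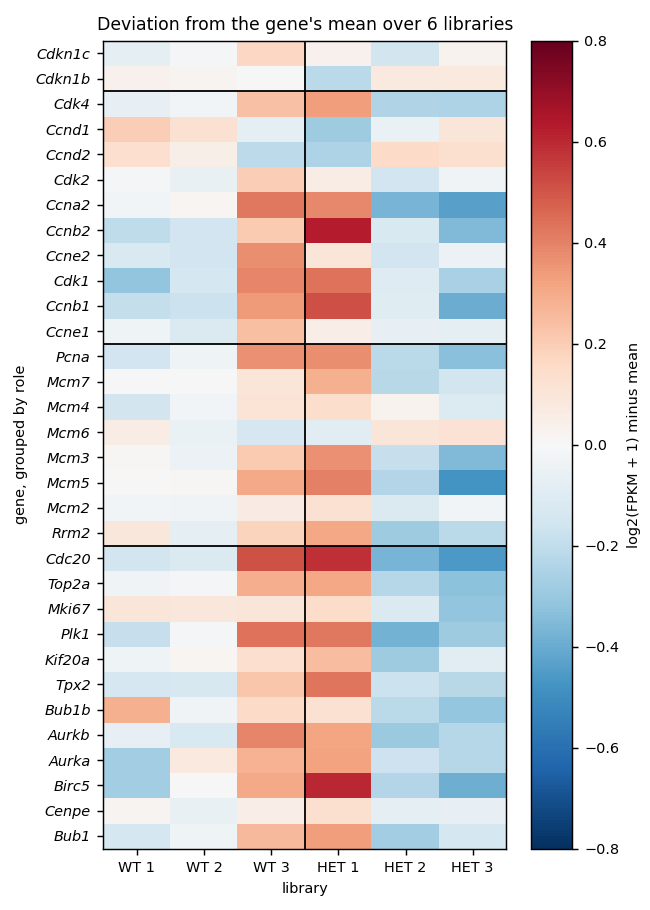
Level of the 32 tested genes in each library, as log2(FPKM + 1) minus the gene's mean over the 6 libraries (red above, blue below), with horizontal lines between roles and a vertical line between WT and HET. WT 3 and HET 1 are red for most genes, whereas Ccnd1, Ccnd2, Mcm6 and Cdkn1b are blue in HET 1.

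The median ratio of a gene's highest to its lowest library was 1.86 over the tested mitotic genes, 1.69 over all tested members and 1.39 over all genes tested. Birc5, which encodes survivin, a subunit of the chromosomal passenger complex, was at 1.52, 2.06 and 2.78 FPKM in WT and 3.65, 1.60 and 1.34 in HET, a 2.72-fold range. Cdc20 was at 6.70, 6.87 and 11.15 FPKM in WT and 11.80, 5.60 and 5.20 in HET. Top2a, the topoisomerase that untangles chromosomes, was at 4.39, 4.43 and 5.71 FPKM in WT and 5.82, 3.69 and 3.37 in HET. In all 3 genes HET 1 was the highest library and HET 3 the lowest, and the groups overlapped. Mki67, the common marker of dividing cells, was at 4.08, 4.05 and 4.07 FPKM in WT and 4.26, 3.38 and 2.81 in HET, so the WT libraries lay close together and the HET libraries on both sides of them. The other mitotic genes tested were the kinase genes Aurka, Aurkb and Plk1, the checkpoint genes Bub1 and Bub1b, the kinetochore motor gene Cenpe, the cytokinesis motor gene Kif20a and Tpx2. HET 1 and WT 3 were the 2 highest in 10 of the 12 mitotic genes tested, all but Mki67 and Bub1b.

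The cyclin and kinase genes showed both orders of the libraries. The mitotic cyclin genes Ccnb1 and Ccnb2 were highest in HET 1. Ccnb1 was at 1.87, 1.90 and 3.14 FPKM in WT and 3.67, 2.06 and 1.48 in HET. Ccnb2 was at 3.61, 3.77 and 5.14 FPKM in WT and 7.20, 3.87 and 3.15 in HET. For Ccnb1 the 95% counting interval in HET 1, from 253 fragments, was 3.23 to 4.15 FPKM and that in HET 3, from 97 fragments, 1.20 to 1.81, so these 2 libraries of 1 genotype differed by more than counting error. Cdk1, the partner of these cyclins, was at 2.0, 2.39 and 3.89 FPKM in WT and 4.05, 2.48 and 2.12 in HET. Ccna2, which acts in S phase and at entry to mitosis, was at 4.14, 4.27 and 5.99 FPKM in WT and 5.79, 3.03 and 2.85 in HET. All 4 genes were high in WT 3 and HET 1, and their groups overlapped. The E-type cyclin genes Ccne1 and Ccne2 and the kinase genes Cdk2 and Cdk4 had the same 2 highest libraries, with ranges of 1.49-fold, 1.62-fold, 1.31-fold and 1.502-fold. D-type cyclin genes, which answer to growth signals, ran the other way. Ccnd1 was at 30.19, 28.53 and 24.79 FPKM in WT and 21.27, 25.16 and 28.11 in HET, and Ccnd2 at 16.48, 15.45 and 12.77 in WT and 12.41, 16.68 and 16.42 in HET. HET 1 and WT 3 were the 2 lowest libraries for both.

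HET 1 and WT 3 were highest for 7 of the 8 replication genes. Pcna was at 22.23, 24.17 and 32.25 FPKM in WT and 32.36, 21.21 and 19.46 in HET. Mcm5, a subunit of the replicative helicase, was at 4.74, 4.80 and 6.11 FPKM in WT and 6.61, 3.89 and 3.13 in HET. Among the 6 helicase genes the ratio of the highest to the lowest library was 2.11 for Mcm5, 1.81 for Mcm3 and 1.46 for Mcm7, and 1.22 to 1.25 for Mcm2, Mcm4 and Mcm6. The helicase subunits, which work as 1 ring, thus spread unequally over the same libraries. Mcm4 was at 7.81, 8.59 and 9.50 FPKM in WT and 9.76, 8.93 and 8.01 in HET. Mcm6 had the opposite order, at 8.44, 7.70 and 7.23 FPKM in WT and 7.52, 8.68 and 8.81 in HET. Rrm2, the subunit of ribonucleotide reductase made in S phase, was at 3.07 to 3.84 FPKM in WT and 2.51 to 4.31 in HET.

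The comparison of HET with WT asks what loss of 1 normal Pou4f3 allele does to these genes. None of the 32 tested members passed the threshold (0; limma, adjusted p = 1.00 for each, over 15391 genes), against a background of 0.0% of all genes called, and 0 members had an unadjusted p under 0.05, against 1.73% of all genes (limma; limma-voom also called 0). For no member (0) did the 3 HET libraries lie apart from the 3 WT libraries, against 5.94% of all genes tested. The change, as HET minus WT on the log2(FPKM + 1) scale, was below 0 for 25 members and above 0 for 7, with a median of -0.06, where 49.6% of all genes were below 0 and their median was 0.00. That count moved with single libraries: leaving out WT 3 left 14 members below 0, HET 3 left 17 and HET 2 left 18, whereas leaving out WT 2 gave 28 and HET 1 or WT 1 gave 29. All 32 intervals at the 95% level included 0, and their bounds lay between -0.93 and 0.73.

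Ccna2 had the lowest change, -0.28 (SE 0.24, 95% interval -0.87 to 0.31), with a HET mean of 3.89 ± 1.65 FPKM against 4.80 ± 1.03 in WT (n = 3 each). Bub1b, which encodes the checkpoint protein BubR1, had -0.27 (SE 0.16, -0.64 to 0.10), from 2.64, 1.93 and 2.32 FPKM in WT and 2.25, 1.57 and 1.41 in HET. Mcm5 (-0.21), Mki67 (-0.19) and Cdc20 (-0.16) followed. The highest changes were those of Ccnb2 (0.10, SE 0.26, -0.53 to 0.73), Mcm6 (0.09), Cdk1 (0.05), Mcm4 (0.04) and Tpx2 (0.02, at 2.46, 2.48 and 3.43 FPKM in WT and 4.10, 2.37 and 2.26 in HET). Both inhibitors had narrow intervals, -0.31 to 0.20 for Cdkn1c and -0.28 to 0.20 for Cdkn1b. By role, 11 of 12 mitotic, 6 of 8 replication and 6 of 10 cyclin and kinase genes were below 0.

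**Figure D3:**
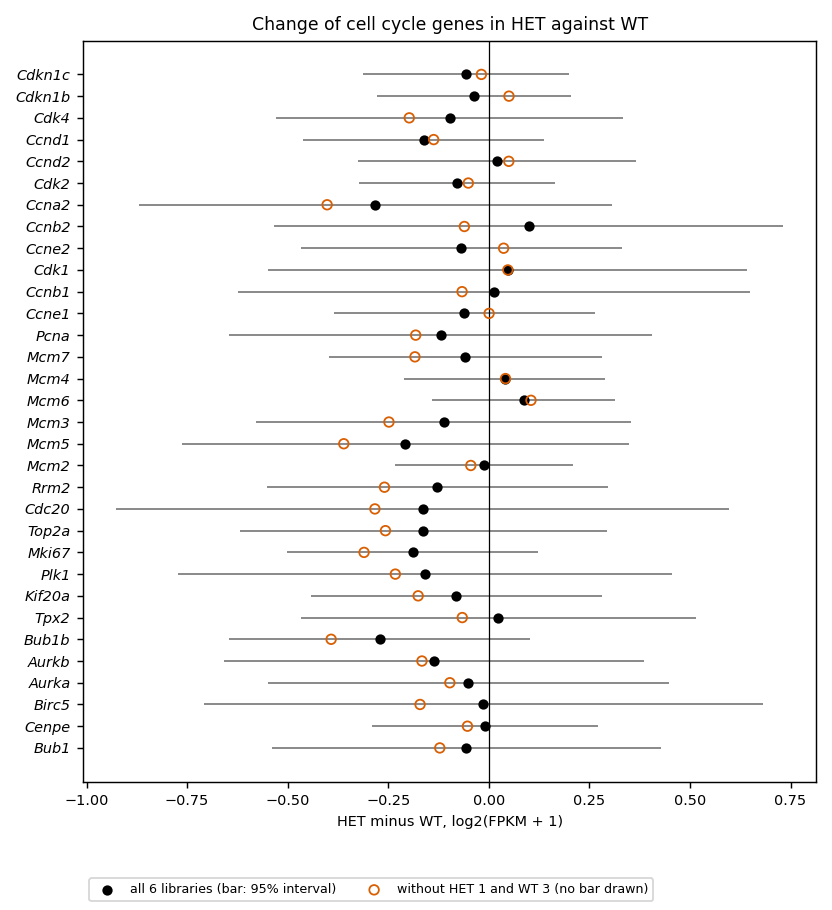
Change of the 32 tested genes as HET minus WT on the log2(FPKM + 1) scale, from all 6 libraries (black, bar for the 95% interval) and without HET 1 and WT 3 (open circles). Every bar crosses 0, and the open circles of Ccna2, Bub1b, Mcm5 and Mki67 lie between -0.40 and -0.31.

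Without the 2 libraries that stood apart, which were picked from these same values, WT 1 and 2 and HET 2 and 3 remained. On the axis that set the pair apart, these 4 libraries still lay in order of genotype. HET 2 and 3 were at -22.4 and -19.4, and WT 1 and 2 at -14.0 and -4.35. With 2 libraries per group, genotype and the rest of that axis cannot be told apart. In these 4 libraries both HET values lay below both WT values for 17 of the 32 members, against 23.6% of all genes tested, and above for 2 (Mcm6 and Cdkn1b), against 26.6%. The 17 included 9 of 12 mitotic and 5 of 8 replication genes. Mki67, for example, was at 4.08 and 4.05 FPKM in WT against 3.38 and 2.81 in HET, and Ccna2 at 4.14 and 4.27 against 3.03 and 2.85. Limma again called none of the members (0; lowest adjusted p = 0.206, for Ccna2 at -0.40). Unadjusted p values under 0.05 were found for 10 members (limma), all lower in HET, where 15.9% of 14844 genes had one and 8.62% were lower. Without both libraries, the changes of Ccnb1, Ccnb2 and Tpx2 turned below 0, and those of Ccne1, Ccne2 and Cdkn1b above it. With WT 3 kept and only HET 1 left out, 9 members had an unadjusted p under 0.05 (limma), against 12.1% of all genes.

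HET 1 and WT 3 also had the 2 highest marker sums for several other cell types, but not for mesenchyme and endothelium. Mesenchyme markers summed highest in WT 2, at 419 FPKM, with WT 3 at 417 and HET 1 at 407. HET 1 and WT 3 were the 2 highest libraries for 2 of 8 mesenchyme markers and the 2 lowest for 2 of 8. Endothelium markers summed highest in HET 1, at 53.4 FPKM, with WT 1 at 52.3 and WT 3 at 51.0. Gene by gene, HET 1 and WT 3 were the 2 highest for 0 of 6 endothelium markers and the 2 lowest for 0 of 6. The 8 glia markers (7 tested) summed to 286, 293 and 339 FPKM in WT and 354, 226 and 201 in HET; none was at 0 in all 6 libraries. HET 1 and WT 3 were the 2 highest libraries for 6 of the 7 tested, all 7 had a HET minus WT change below 0 (median -0.33, against -0.06 for the members), and 5 of 7 were lower in both HET 2 and HET 3 than in WT 1 and WT 2. Spiral ganglion neuron markers summed to 125, 154 and 172 FPKM in WT and 168, 142 and 140 in HET. The largest part of that sum was Gata3, at 81.66 to 87.0 FPKM over the 6 libraries. HET 1 and WT 3 were the 2 highest libraries for 5 of 7 neuron markers tested. Macrophage markers (33.0 to 40.3 FPKM in WT, 28.8 to 38.4 in HET) had them highest for 4 of 7, erythroid markers (109.85 to 171 in WT, 63.8 to 146 in HET, with the red cell membrane gene Slc4a1 at 0.13 or less) for 2 of 5, and bone and cartilage markers (1232 to 1331 in WT, 1071 to 1315 in HET) for 2 of 6. Over all genes tested the share was 31.5%, and the erythroid (40.0%) and bone and cartilage (33.3%) shares lay near it. Most of the bone and cartilage sum was Col2a1, at 1249 FPKM in WT 3 and 1235 in HET 1. HET 1 and WT 3 also had the highest FPKM summed over all genes. Summed hair cell markers (243 to 311 FPKM in WT, 241 to 283 in HET) and supporting cell markers (1494 to 1622 in WT, 1367 to 1713 in HET) were highest there too, but gene by gene this held for 2 of 10 and 4 of 10, and HET 1 and WT 3 were the 2 lowest for 2 of 10 in each list. The part of these cells in the levels of the cell cycle genes was not tested.

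Further cell cycle genes were set down as 4 lists, 120 genes outside the 34, of which 99 were tested in HET against WT and 0 were called (0.0% of all genes). Of genes of mitotic entry, spindle and division, 44 of 55 were tested; 34 were below 0 in HET, with a median change of -0.08, and HET 1 and WT 3 were highest for 33. Of genes of DNA replication and nucleotide supply, 33 of 39 were tested, 19 were below 0 (median -0.01) and 19 had these 2 libraries highest. Genes of G1 and the restriction point had no common order: of 17 tested of 20, 9 were below 0 (median -0.02), with HET 1 and WT 3 highest for 5 and lowest for 5. Of 5 tested CDK inhibitor genes of 6, 2 were below 0, with HET 1 and WT 3 highest for 3 and lowest for 0. Median levels by library, beside those of all genes, are given in the plot of gene set medians.

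**Figure D4:**
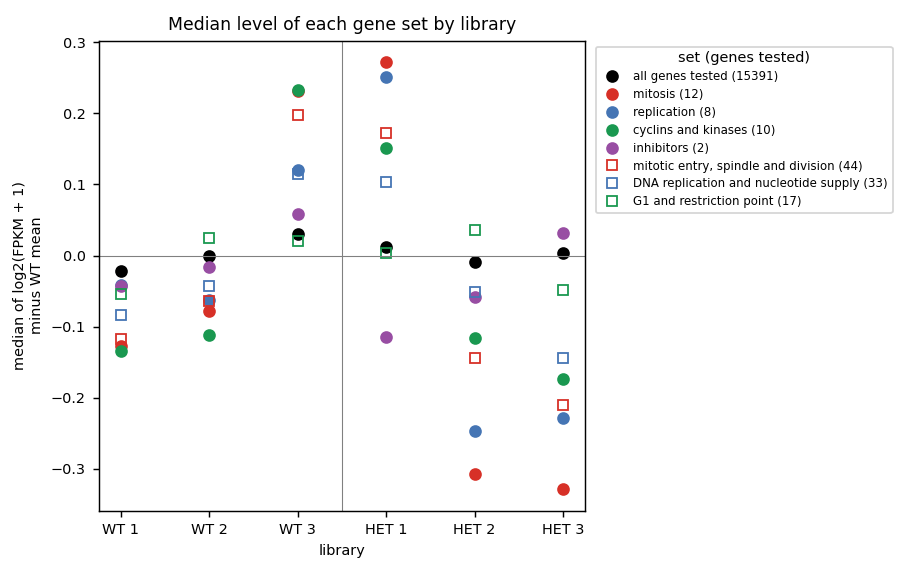
Median over each gene set, in each library, of log2(FPKM + 1) minus the gene's WT mean, for the members by role (filled), 3 further cell cycle lists (open squares) and all genes tested (black). The mitosis and replication sets lie above 0 in WT 3 and HET 1 and below 0 in the other 4 libraries, whereas all genes and the G1 list stay near 0.

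None of the 34 (0) is listed for HOM, where 7.35% of the 15391 genes tested in HET and WT are listed. Of the 120 further cell cycle genes 5 are listed, all among the 99 tested (5.05%): 4 of replication and nucleotide supply and 1 of G1. The genes listed for HOM appear to have been chosen for a difference from WT, so calls among them are a description and no support: 93.1% of 1109 listed genes passed limma's threshold against WT (27.7% higher and 65.4% lower in HOM), and 93.8% had an unadjusted p under 0.05. Pola2, which encodes a subunit of the polymerase that starts DNA strands, was at 7.22, 7.53 and 8.42 FPKM in WT, 7.21, 6.88 and 6.85 in HET and 6.11, 5.85 and 6.70 in the HOM libraries. The methyltransferase that copies DNA methylation, Dnmt1, was at 14.10, 12.93 and 12.67 FPKM in WT, 11.60, 12.39 and 11.87 in HET and 11.62, 11.93 and 10.19 in those of HOM. Tfdp1, the dimer partner of E2F factors, was at 27.15, 25.23 and 28.17 FPKM in WT, 25.03, 22.78 and 22.82 in HET and 24.19, 23.97 and 24.52 for HOM. These 3 genes were lower in HOM than in WT in every library. Higher in HOM were Rrm1, the partner of Rrm2 in ribonucleotide reductase, at 3.88, 3.63 and 3.96 FPKM in WT, 4.18, 3.71 and 3.26 in HET and 4.30, 4.20 and 4.69 for HOM, and the replication fork protein gene Tipin, at 14.55, 15.13 and 16.84 in WT, 18.32, 15.03 and 16.07 in HET and 17.80, 17.80 and 20.46 for HOM.

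On the log2(FPKM + 1) scale, HOM minus WT was -0.27 for Pola2 (SE 0.07, limma adjusted p = 0.0176), -0.22 for Dnmt1 (0.0262) and -0.14 for Tfdp1 (0.0283), and 0.16 for Rrm1 (0.0427) and 0.25 for Tipin (0.0215). Adjusted p values here, and both scalings below, run over listed genes only. Most listed genes were lower in HOM, so scaling to them shifts changes in HOM upward. Calls kept or gained under the scalings cannot be told apart from that shift. Scaling libraries by median ratio or upper quartile took the median listed gene from -0.22 to -0.05 and -0.03; the calls of Pola2, Dnmt1 and Tfdp1 were then lost (-0.09, -0.02 and 0.06 by median ratio; -0.06, 0.00 and 0.09 by upper quartile, so that Tfdp1 turned upward under both and Dnmt1 under the second), whereas Rrm1 (0.33 and 0.35) and Tipin (0.45 and 0.48) kept theirs. The call of Rrm1 was lost without any 1 of the 6 libraries (adjusted p 0.0513 to 0.123), that of Tfdp1 without HOM 1, HOM 2, WT 1 or WT 3 (0.0684 to 0.0770), that of Dnmt1 without HOM 3, WT 1 or WT 2 (0.0516 to 0.0799) and that of Tipin without WT 1 or WT 2 (0.0669 and 0.0641). Against HET, none of the 5 was called (0; limma adjusted p from 0.114 to 0.500), where 44.5% of 1090 listed genes were (8.17% higher and 36.3% lower in HOM; 55.2% at an unadjusted p under 0.05); under both scalings Rrm1, Tipin and Tfdp1 were called, higher in HOM.

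Exons of 12 of the 34 genes overlap another annotated gene, 11 of them one on the opposite strand, such as Pmel for Cdk2, Tspan31 for Cdk4, Elovl1 for Cdc20 and Exosc9 for Ccna2. No source states that strand was used in counting, so reads of such pairs cannot be told apart. Ccnb1, Ccnb2 and Pcna also have named pseudogene copies, which could share reads with them.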

How the data were processed

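The deposited values are FPKM (fragments scaled to gene length and library size) that the authors made per library, per the file headers. The submitters' processing notes name DESeq2 and mm8, with no role; no source used here gives the aligner, counter or annotation. Per the labels' protocols, RNA underwent poly(A) isolation or rRNA removal, without saying which. Symbols, positions and exon lengths come from GENCODE M21 (GRCm38), which matched 51633 of 51912 identifiers.

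The test was limma (3.58.1, under R 4.3.3) with a mean-variance trend, applied to log2(FPKM + 1) of genes that reached 1 FPKM in 3 or more of a fit's 6 libraries; p values are two-sided and Benjamini-Hochberg adjusted over all genes tested, with a threshold of 0.05. The fit was also run on simulated data with independent noise in each gene and library. Such data lack the axis that the real libraries share, so that run cannot show how the fit behaves with it. The log2(FPKM + 1) scale understates changes of low genes. Depth was recovered as the number that turned low values, times exon length, into whole fragments within 0.1, which held for 94.3% to 99.4% of them. It was chosen for that fit and GENCODE length may differ from the authors' gene length. Counting intervals (exact Poisson, 95%) cover counting error only. Genes given library by library were the 2 inhibitors, Mki67, Top2a, Pcna, Ccnd1, Cdk1, Ccnb1, the highest gene of each role and the 5 highest and 5 lowest changes; Birc5, Ccnd2 and Cenpf were added after their values were seen. The members and lists were chosen with earlier results of these data known. The marker lists also covered mesenchyme (399 to 419 FPKM summed in WT, 375 to 407 in HET) and endothelium (50.7 to 52.3 and 47.5 to 53.4).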

Additional observations from a re-analysis of the deposited data

How the results depend on the processing

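In HET against WT the count of members called stayed at 0 under each alternative run: a pseudocount of 0.1, no minimum level, no mean-variance trend, median-ratio and upper-quartile scaling, a replicate block, each library left out, HET 1 and WT 3 left out, and limma-voom on recovered fragments, which was chosen after seeing the data. Nothing in the sample labels singles out HET 1 and WT 3, so leaving them out also rests on values seen in these data. The settings that kept all 6 libraries reversed 0 of 32 members. Without HET 1 and WT 3 the changes of Ccnb1 (-0.067), Ccnb2 (-0.061), Tpx2 (-0.066), Ccne1 (0.00060), Ccne2 (0.037) and Cdkn1b (0.050) reversed. With 1 library left out in turn, 23 members reversed at least once and 9 did not; the lowest and highest changes, with Rrm1 added from the further genes, were Aurka -0.22 to 0.076, Aurkb -0.33 to 0.026, Birc5 -0.32 to 0.18, Bub1 -0.24 to 0.069, Ccnb1 -0.24 to 0.22, Ccnb2 -0.19 to 0.30, Ccnd2 -0.080 to 0.15, Ccne1 -0.13 to 0.043, Ccne2 -0.16 to 0.10, Cdc20 -0.50 to 0.050, Cdk1 -0.16 to 0.25, Cdk4 -0.29 to 0.00036, Cdkn1b -0.087 to 0.061, Cdkn1c -0.11 to 0.012, Cenpe -0.076 to 0.026, Kif20a -0.22 to 0.042, Mcm2 -0.075 to 0.042, Mcm3 -0.32 to 0.036, Mcm4 -0.023 to 0.11, Mcm7 -0.22 to 0.039, Pcna -0.34 to 0.034, Plk1 -0.41 to 0.018, Rrm1 -0.11 to 0.035, Tpx2 -0.18 to 0.14. The cause was not tested. The count of all genes called in HET against WT was 0 to 1 with 1 library left out.

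In HOM against WT the count of 1032 became 655 after median-ratio scaling, 638 with upper quartiles and 588 to 864 with 1 library left out (588 without WT 1, 594 without WT 2 and 672 without WT 3). Tfdp1 reversed under both scalings (0.064 and 0.088) and Dnmt1 under upper-quartile scaling (0.0024). Both scalings were set from listed genes only, most of them lower in HOM, so reversals under them cannot be told apart from that choice. In HOM against HET the count of 485 became 304 with a replicate block and 116 to 431 with 1 library left out, 142 without HET 2 and 116 without HET 3. Pola2 reversed under upper-quartile scaling (0.062) and Dnmt1 under both scalings (0.063 and 0.14). Replicate numbers did not pair the libraries: deviations of same-numbered HET and WT libraries correlated at -0.52, 0.29 and -0.47 across genes, and no HET library correlated best with the WT library of its own number. With the block, HET against WT called 0 genes, as without it, and HOM against WT 909, where Rrm1 lost its call (limma adjusted p = 0.0546). Depth limits the low genes: Ccnb1 rests on 97 to 253 fragments per library and Birc5 on 71 to 203.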
